A study of Mus musculus with 6 samples.

Results

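The genes described here are the 33 that encode the enzymes of purine and pyrimidine nucleotide synthesis, 2 salvage enzymes of purine bases, and the enzymes that make or degrade the deoxynucleotides used for DNA. They were taken by name from the count table, which lists 54532 genes, and all 33 names were found there. By branch they comprised 16 purine genes, 6 pyrimidine genes, 9 deoxynucleotide genes and 2 nucleoside diphosphate kinase genes, which serve every branch. CD4+ T cells came from the spleen of male C57BL/6 mice, 6 to 8 weeks old, and were purified by magnetic negative selection. They were cultured on plate-bound anti-CD3ε with anti-CD28, IL-2, IL-12p70 and anti-IL-4 (Th1 conditions). The Th1 group (n = 3) received vehicle, 0.1% DMSO, and the ALX-5407 group (n = 3) received 500 nM ALX-5407, which blocks glycine uptake through GlyT1. The labels give 72 h under Th1 conditions with ALX-5407 treatment, and no separate exposure time is read from the titles. The RNA sequencing methods of the study give a shorter exposure and another way of selecting mRNA than the labels. Its figure legend describes ALX-5407 treatment and Th1 culture for 3 days. Both points are therefore uncertain. The cells were a polyclonal population kept in culture. Whether the 3 biological replicates of a group came from separate mice is not stated, so the p-values below measure the spread between these libraries. In such bulk RNA, fewer cells of a kind and less RNA per cell cannot be told apart.

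A purine nucleotide is built on a phosphorylated ribose, phosphoribosyl pyrophosphate (PRPP), by stepwise closure of the ring up to inosine monophosphate (IMP), which is then turned into AMP or GMP. Glycine is incorporated whole into the purine ring, and formyl groups carried by folate supply further ring carbons, whereas the pyrimidine ring is made from glutamine, bicarbonate and aspartate before it is joined to PRPP. Ribonucleotide reductase converts ribonucleotides to deoxyribonucleotides, and resting T cells keep these pools small until activation drives them into division.

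Each library held 30801753 to 36727788 counts, and 15938 genes passed the filter on low counts and were tested with edgeR (quasi-likelihood F test). P-values were adjusted by the method of Benjamini and Hochberg over all of these genes (called "edgeR adjusted p" below, with a call at 0.05). Levels are given as CPM, counts scaled to library size after TMM, and errors of means are SD with n = 3. Of 9 T cell markers 2 rose (22.2%) and 5 fell (55.6%), against 24.5% and 23.2% of all genes tested. The T cell markers had a median log2 fold change of -0.23 (1 rose without ALX-5407 replicate 1, and 3 fell without ALX-5407 replicate 3). They summed to 2966 to 3184 CPM in Th1 and to 2970 to 3044 CPM with ALX-5407, with Cd4 at 646 ± 67.4 and 470 ± 10.8 CPM. Erythroid and NK cell markers had under 10 counts in every library. B cell markers summed to 7.60 to 8.84 CPM in Th1 and 11.4 to 14.4 CPM with ALX-5407, and 3 of 5 rose (Pax5, Ms4a1 and Cd79a, although DESeq2 did not call Cd79a). CD8 T cell markers summed to 9.25 to 9.59 and 6.71 to 8.87 CPM. Dendritic cell markers summed to 4.05 to 4.87 CPM in Th1 and 2.94 to 3.67 CPM with ALX-5407. Of these 4 markers 2 could be tested and neither was called (median log2 fold change -0.46). Of 5 markers of Th1 cells 1 rose (20%) and 2 fell (40%), their sum being 1299 to 1493 CPM in Th1 and 1046 to 1085 CPM with ALX-5407. Of 8 myeloid markers, 5 had under 10 counts in every library, S100a8 and S100a9 being at 0, and Ly6g fell from 72.1 ± 2.81 to 27.0 ± 4.04 CPM. The part of these shifts in the results below was not tested.

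Promoter letters are shown for Gart, Rrm1 and Rrm2, since these 3 genes were among those that rose most and since each holds CCAAT, the motif bound by NF-Y. The windows are the 250 bases before the RefSeq start on GRCm38.p6, written 5′ to 3′ on the strand of the gene, with CCAAT in capitals. Gart lies at chr16:91646973-91647222 (− strand), Rrm1 at chr7:102441445-102441694 (+ strand) and Rrm2 at chr12:24708004-24708253 (+ strand), and the Rrm2 window reaches a few bases into the first exon of the GENCODE annotation.
Gart: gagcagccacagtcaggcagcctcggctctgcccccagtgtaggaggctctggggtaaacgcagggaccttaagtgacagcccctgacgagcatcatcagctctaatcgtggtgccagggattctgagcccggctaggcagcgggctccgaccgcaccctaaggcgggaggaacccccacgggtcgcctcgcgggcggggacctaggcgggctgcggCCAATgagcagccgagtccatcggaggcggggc
Rrm1: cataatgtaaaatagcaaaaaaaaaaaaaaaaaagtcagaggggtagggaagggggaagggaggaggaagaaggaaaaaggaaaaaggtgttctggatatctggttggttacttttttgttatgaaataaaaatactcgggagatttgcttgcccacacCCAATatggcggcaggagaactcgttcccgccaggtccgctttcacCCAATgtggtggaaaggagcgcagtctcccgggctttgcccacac
Rrm2: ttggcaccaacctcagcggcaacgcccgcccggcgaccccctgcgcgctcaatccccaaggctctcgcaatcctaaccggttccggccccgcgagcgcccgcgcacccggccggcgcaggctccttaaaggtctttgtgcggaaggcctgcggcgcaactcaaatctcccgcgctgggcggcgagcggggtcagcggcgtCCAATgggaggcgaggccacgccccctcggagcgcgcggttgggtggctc
RefSeq windows were found for 30 of the 33 genes (37 windows, since some genes have several starts). CCAAT, on either strand, was found in 9 of these windows (24.3%; Prps1, Gart, Paics, Atic, Guk1, Ctps2, Dtymk, Rrm1 and Rrm2) and in 33.8% of all 32851 mouse windows. The Myc-type E-box CACGTG was found in 7 windows (18.9%) of 6 genes (Paics, Atic, Impdh2, Nme1, Tyms and Dtymk) and in 6.02% of all windows. The E2F letters TTTCCCGC, TTTCGCGC, TTTGCCGC and TTTGGCGC, on either strand, were found in 1 window (2.70%), of Ppat, and in 1.86% of all windows. The amino acid response letters TGATGNAA were found in 1 window (2.70%), of Prps1, and in 3.45% of all windows. Of the 6 genes with the E-box, Atic, Tyms and Dtymk rose, while Paics, Impdh2 and Nme1 were not called. These matches describe letters in a window and do not show that a factor binds there.

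Transcripts of nucleotide synthesis were mostly higher with ALX-5407, and the rise reached from the purine ring to DNA precursors, but Samhd1, Aprt, Adss, Adssl1 and Prps1 fell. Of the 33 genes 32 could be tested, and Nme2 had too few counts. 21 rose (65.6%), against 24.5% of all genes tested, and 5 fell (15.6%), against 23.2%. The median log2 fold change was 0.26 over the 32 genes and 0.0053 over all genes tested, and single genes ranged from -0.98 to 1.52. All called changes but that of Rrm2 were under 2-fold. Past a log2 fold change of 1 as well, 1 gene rose (Rrm2) and 0 fell, whereas 3.36% of all genes rose and 6.68% fell by this rule.

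**Figure D1:**
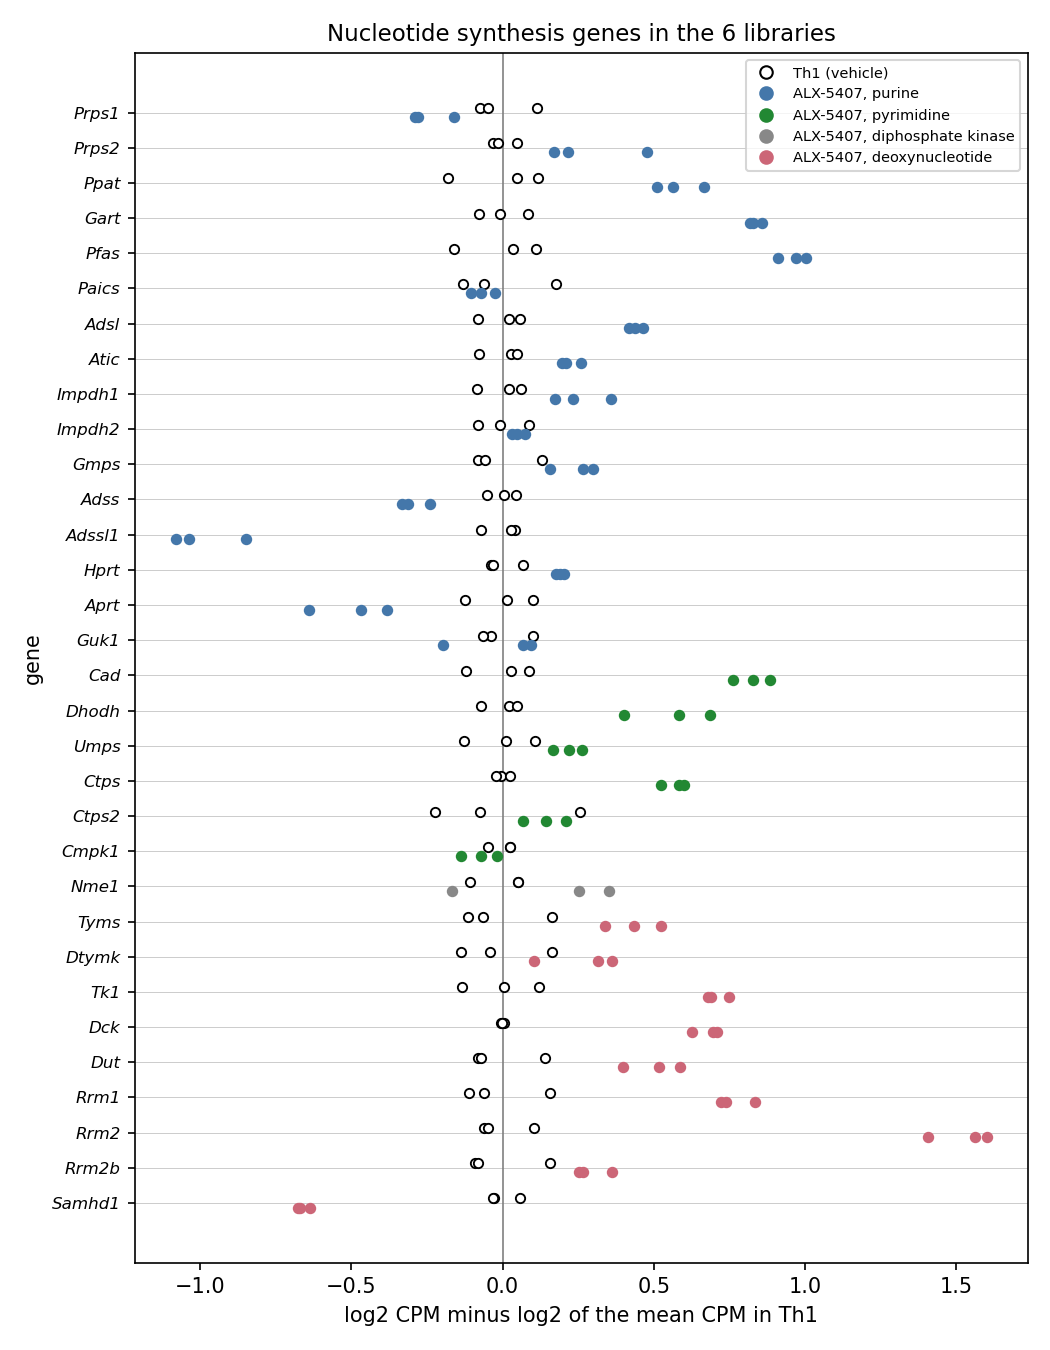
Level of each tested gene in each of the 6 libraries, as log2 CPM minus the log2 of the Th1 mean (x axis), by gene (y axis). Open points are the 3 Th1 libraries and filled points the 3 ALX-5407 libraries, coloured by branch. The 3 ALX-5407 points of Rrm2 lie farthest to the right, those of Adssl1 farthest to the left, and the groups of 25 of the 32 genes (78.1%) do not overlap, against 55.5% of all genes tested.

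The branches differed in their counts and medians, which were not tested against each other. In the purine branch 9 of 16 rose (56.25%), against 24.5% of all genes tested (median 0.21). There 4 fell (25%), a share close to the 23.2% of all genes tested. In the pyrimidine branch 4 of 6 rose (66.7%) and 0 fell (median 0.39). The number that fell was also 0 at an unadjusted p under 0.05 in edgeR, or by DESeq2 or limma-voom after adjustment. In the deoxynucleotide branch 8 of 9 rose (88.9%) and 1 fell (11.1%), with a median of 0.50. Single libraries gave the same order of branches. Relative to the Th1 mean, the purine median lay between 0.18 and 0.19 in the 3 ALX-5407 libraries, the pyrimidine median between 0.28 and 0.40 and the deoxynucleotide median between 0.52 and 0.59. The Th1 libraries themselves spread from -0.077 to 0.12 in the deoxynucleotide branch, with Th1 replicate 3 the highest.

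**Figure D2:**
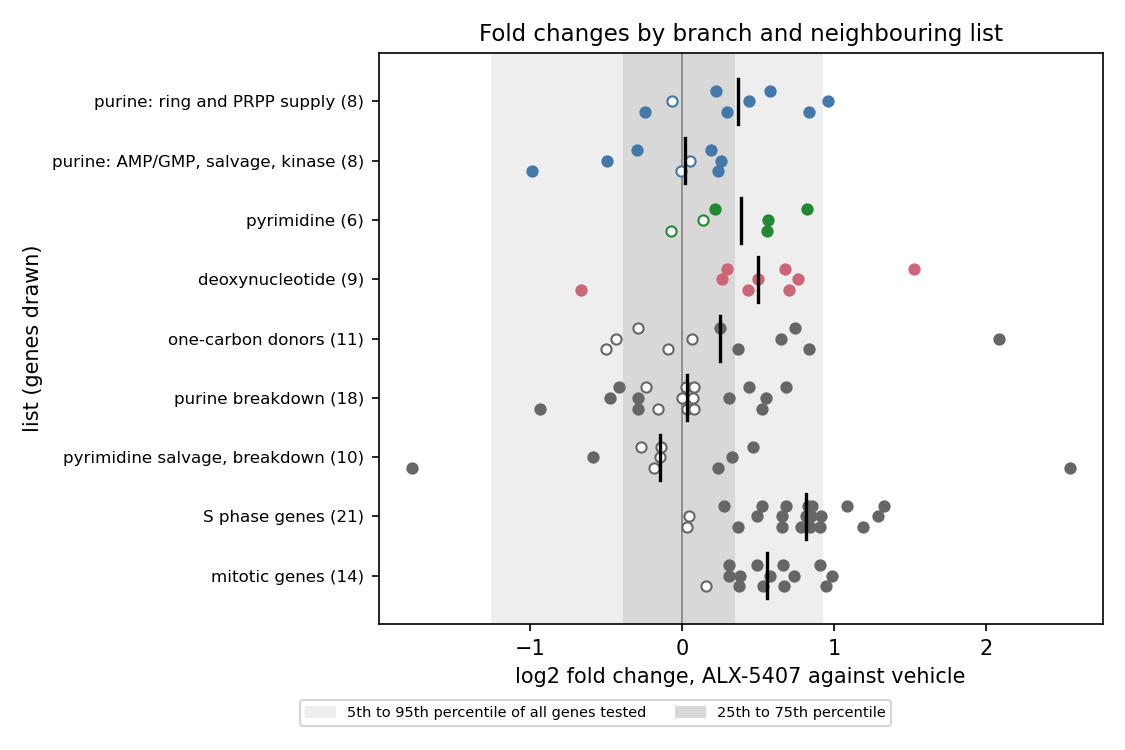
Log2 fold change of ALX-5407 against vehicle (x axis) for each gene of the purine, pyrimidine and deoxynucleotide branches and of neighbouring lists (y axis, with the number of genes drawn). Filled points were called, open points were not, black bars are medians and grey bands are percentiles of all 15938 genes tested; Gda is left out because of its few counts. Most deoxynucleotide points lie to the right of the inner band, which ends at 0.34, and the second purine row is centred near 0.

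PRPP synthetases supply the activated ribose for both rings, and the 2 genes moved in opposite directions. Prps1 had 75.5, 76.8 and 86.0 CPM in the Th1 libraries and 65.4, 65.0 and 71.1 CPM with ALX-5407. Its log2 fold change was -0.24 (SE 0.0773, edgeR adjusted p = 0.0164). The groups did not overlap, but the call was lost without ALX-5407 replicate 1 (-0.22, edgeR adjusted p = 0.0773) and without ALX-5407 replicate 2 (-0.21, edgeR adjusted p = 0.0890). Prps2 had 65.1, 65.9 and 68.8 CPM in Th1 and 74.9, 77.4 and 92.8 CPM with ALX-5407, also without overlap. Its log2 fold change of 0.29 (SE 0.0845, edgeR adjusted p = 0.00872) became 0.20 (edgeR adjusted p = 0.0568) without ALX-5407 replicate 3, the highest library.

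Of the 6 genes that build the purine ring from PRPP to IMP, 5 rose (83.3%, against 24.5% of all genes tested). The median log2 fold change over the 6 was 0.51. 0 fell in edgeR's test, and the count at an unadjusted p under 0.05, and by DESeq2 or limma-voom after adjustment, was also 0. Ppat, the amidotransferase of the committed step, had 50.1, 61.5 and 58.7 CPM in Th1 and 83.8, 80.9 and 90.0 CPM with ALX-5407. All 3 treated libraries lay above the 3 controls, with a log2 fold change of 0.58 (SE 0.0847, edgeR adjusted p = 3.2e-05). Gart encodes the trifunctional enzyme that adds glycine and then the first formyl group. It had 57.6, 60.6 and 64.5 CPM in Th1 and 107, 108 and 110 CPM with ALX-5407. This was a log2 fold change of 0.83 (SE 0.0721, edgeR adjusted p = 1.44e-07), from 60.9 ± 3.44 to 109 ± 1.57 CPM, with little spread among the treated libraries. The antisense gene Gm15964 covers 19.7% of the Gart exon bases and had 17 to 42 counts in any library. Since it is not given whether the counting used strand, these low counts do not show that Gart lost no reads there. Pfas, which adds the amide nitrogen of glutamine in the next step, showed the steepest rise of the ring genes. It had 46.8, 53.6 and 56.5 CPM in Th1 and 105, 98.3 and 102 CPM with ALX-5407, which was a log2 fold change of 0.96 (SE 0.0805, edgeR adjusted p = 1.07e-07).

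The later ring steps moved less. Adsl, the lyase that acts both in the ring and in AMP synthesis, rose from 63.9 ± 3.16 to 86.7 ± 1.41 CPM, a log2 fold change of 0.44 (SE 0.0716, edgeR adjusted p = 9.29e-05). Atic, the bifunctional enzyme that adds the last formyl group and closes the ring, rose from 129 ± 5.87 to 150 ± 3.56 CPM. On the log2 scale this was 0.22 (SE 0.0690, edgeR adjusted p = 0.0139), and with upper quartile scaling it was 0.17 (edgeR adjusted p = 0.0502). Paics, the carboxylase and ligase between Pfas and Adsl, was the exception. It had 295, 282 and 348 CPM in Th1 and 303, 287 and 294 CPM with ALX-5407, so the groups overlapped. The log2 fold change was -0.067, with a 95% interval from -0.24 to 0.10 (edgeR adjusted p = 0.526). This interval does not reach the log2 fold change of Ppat, which lies head to head with Paics. Ppat occupies chr5:76913249-76951578 on the − strand and Paics chr5:76951307-76967509 on the + strand, so their first exons overlap by 272 bases, 6.15% of the exon bases of Ppat and 8.67% of those of Paics. Whether the counting used strand is not given in the sources used here, so reads in these bases could not be assigned with certainty. Per kilobase of exon, Paics stood 7.71 ± 1.08 times as high as Ppat in Th1 and 4.90 ± 0.264 times with ALX-5407, a ratio chosen after the values were seen.

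From IMP the paths to GMP and AMP divide. Of the 5 genes listed for this part 2 rose and 2 fell (40% each), against 24.5% and 23.2% of all genes tested. On the GMP side, Impdh1, the lesser of the 2 IMP dehydrogenases here, had 111, 108 and 100 CPM in Th1 and 125, 136 and 120 CPM with ALX-5407. Its log2 fold change was 0.26 (SE 0.0745, edgeR adjusted p = 0.00945), and 0.21 without ALX-5407 replicate 2 (edgeR adjusted p = 0.0727). Gmps, which aminates XMP to GMP, had 114, 116 and 132 CPM in Th1 and 148, 135 and 145 CPM with ALX-5407. The groups lay close together without overlap, with a log2 fold change of 0.24 (SE 0.0768, edgeR adjusted p = 0.0163). The call was lost without Th1 replicate 1 or 2 or ALX-5407 replicate 1, at log2 fold changes from 0.19 to 0.22 and edgeR adjusted p from 0.0714 to 0.0872, and with upper quartile scaling (0.19, edgeR adjusted p = 0.0565). Impdh2, the isoform of dividing lymphocytes, had 202, 189 and 179 CPM in Th1 and 194, 196 and 200 CPM with ALX-5407, within the range of the controls. The estimated log2 fold change was 0.051, with a 95% interval from -0.10 to 0.20 (edgeR adjusted p = 0.582). A processed pseudogene, Impdh2-ps, is 99.7% identical over 1545 bases and carried 1718 to 2523 counts. With these added, the log2 fold change of Impdh2 was 0.060 (edgeR adjusted p = 0.526).

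On the AMP side both adenylosuccinate synthases fell. Adss, the general isoform, had 155, 162 and 166 CPM in Th1 and 130, 128 and 136 CPM with ALX-5407. The groups were well apart, with a log2 fold change of -0.29 (SE 0.0686, edgeR adjusted p = 0.00207). Adssl1, the isoform best known from muscle, had 10.3, 10.2 and 9.52 CPM in Th1 and 4.73, 4.88 and 5.56 CPM with ALX-5407. This was the deepest fall of the 32 genes tested, at a log2 fold change of -0.98 (SE 0.138, 95% interval from -1.28 to -0.69, edgeR adjusted p = 2.14e-05). Adsl, the next enzyme on this path, rose, as given above.

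The 2 purine salvage genes, which rejoin free bases with PRPP, moved apart. Hprt, which salvages hypoxanthine and guanine, had 167, 168 and 180 CPM in Th1 and 197, 195 and 194 CPM with ALX-5407. The log2 fold change of 0.19 (SE 0.0679, edgeR adjusted p = 0.0293) lost its call without Th1 replicate 1 or 2 or ALX-5407 replicate 1 or 2, at 0.16 to 0.20 and edgeR adjusted p from 0.0850 to 0.108. It lost it too with upper quartile scaling (0.14, edgeR adjusted p = 0.111) and with a filter at a mean of 50 counts (0.16, edgeR adjusted p = 0.0503). Aprt, which salvages adenine, had 114, 104 and 121 CPM in Th1 and 81.7, 86.6 and 72.5 CPM with ALX-5407. All 3 treated libraries lay below the controls, with a log2 fold change of -0.49 (SE 0.0832, edgeR adjusted p = 0.000135). Guk1, the kinase that turns GMP into GDP, stayed between 25.3 and 31.1 CPM in all 6 libraries. The estimated log2 fold change was -0.0068, with a 95% interval from -0.21 to 0.20 (edgeR adjusted p = 0.963).

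In the pyrimidine branch the first enzyme rose most. Cad, the trifunctional protein that performs the first 3 steps of ring synthesis, had 118, 102 and 114 CPM in Th1 and 206, 189 and 198 CPM with ALX-5407. There was a wide gap between the groups and a log2 fold change of 0.82 (SE 0.0750, edgeR adjusted p = 2.39e-07). Dhodh, the mitochondrial dehydrogenase of the fourth step, had 13.1, 12.3 and 13.4 CPM in Th1 and 20.8, 19.4 and 17.1 CPM with ALX-5407. Although low, it also rose without overlap, by a log2 fold change of 0.56 (SE 0.109, edgeR adjusted p = 0.000484). Umps, the bifunctional enzyme that makes UMP, rose from 50.6 ± 4.07 to 58.8 ± 1.98 CPM, a log2 fold change of 0.22 (SE 0.0796, edgeR adjusted p = 0.0329). Without Th1 replicate 1 or 2 or ALX-5407 replicate 1 or 2 it was 0.15 to 0.22, with edgeR adjusted p from 0.0771 to 0.188. With upper quartile scaling it was 0.16 (edgeR adjusted p = 0.106) and with a filter at a mean of 50 counts 0.19 (edgeR adjusted p = 0.0526).

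CTP synthases aminate UTP to CTP and are encoded by 2 genes. Ctps had 50.9, 50.3 and 52.0 CPM in Th1 and 73.4, 76.5 and 77.4 CPM with ALX-5407. The spread within groups was small and the log2 fold change was 0.57 (SE 0.0708, edgeR adjusted p = 6.53e-06). Ctps2 had 53.4, 48.2 and 67.2 CPM in Th1 and 65.0, 58.9 and 62.2 CPM with ALX-5407. These groups overlapped, with a log2 fold change of 0.14 and a 95% interval from -0.07 to 0.36 (edgeR adjusted p = 0.274). Th1 replicate 3 set this result, since without it the log2 fold change was 0.27 (edgeR adjusted p = 0.00946). Cmpk1, the UMP and CMP kinase, had 79.3 ± 2.29 CPM in Th1 and 75.4 ± 3.11 CPM with ALX-5407, with overlapping groups. The estimated log2 fold change was -0.074, with a 95% interval from -0.23 to 0.08 (edgeR adjusted p = 0.417).

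Nucleoside diphosphate kinases make the triphosphates of every base. Nme1 had 19.5, 21.8 and 21.8 CPM in Th1 and 26.8, 25 and 18.7 CPM with ALX-5407. ALX-5407 replicate 3 fell below all controls, and the log2 fold change was 0.16 with a 95% interval from -0.09 to 0.42 (edgeR adjusted p = 0.289). Without that library it was 0.31 (edgeR adjusted p = 0.0298). Nme2 had 10, 4 and 7 counts in Th1 and 15, 7 and 10 counts with ALX-5407 and was not tested. Its 3 near-identical processed pseudogenes held most of the counted reads of this sequence. Nme2 and these copies together had 421, 450 and 333 counts in Th1 and 354, 316 and 322 with ALX-5407, a log2 fold change of -0.46 (edgeR adjusted p = 0.00870) by a sum added after the data were seen. The level of Nme2 itself is therefore uncertain. A readthrough gene, Gm20390, covers 48.9% of the Nme2 and 12.5% of the Nme1 exon bases and had 0 counts. How reads in these shared bases were counted is not given in the sources used here. The 0 counts therefore do not show that the counts of Nme2 and Nme1 were unaffected. Whether the low counts of Nme2 come from its copies or from these shared bases was not tested.

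The deoxynucleotide branch held both the steepest rise and the most abundant falling gene of the whole list. Ribonucleotide reductase consists of a large catalytic subunit, Rrm1, and a small radical-bearing subunit, Rrm2 or Rrm2b. Rrm2, the small subunit of S phase (chr12:24708241-24714146, + strand), had 57.4, 64.4 and 57.9 CPM in Th1 and 177, 159 and 182 CPM with ALX-5407. No other gene of the list moved as far, at 2.88-fold or a log2 fold change of 1.52 (SE 0.0790, 95% interval from 1.36 to 1.69, edgeR adjusted p = 5.85e-10). Rrm1 had 169, 175 and 204 CPM in Th1 and 305, 301 and 326 CPM with ALX-5407. Its groups were far apart, with a log2 fold change of 0.77 (SE 0.0798, edgeR adjusted p = 1.04e-06). Rrm2b, the small subunit used outside S phase and induced by p53, had 21.3, 21.4 and 25.2 CPM in Th1 and 27.0, 27.2 and 29.1 CPM with ALX-5407. Its log2 fold change of 0.29 (SE 0.0959, edgeR adjusted p = 0.0182) was the least stable of the 3. Without Th1 replicate 1 or 2 or ALX-5407 replicate 3 it was 0.24 to 0.27, with edgeR adjusted p from 0.0643 to 0.0852. Gm49085, on the opposite strand over 8.04% of the Rrm2b exon bases, had 2 to 11 counts. As for Gart, this does not show whether Rrm2b lost reads there.

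Thymidylate and the salvage of deoxynucleosides followed the same direction. Tyms, which methylates dUMP to dTMP with a folate carrier, had 23.3, 22.5 and 27.3 CPM in Th1 and 32.9, 30.8 and 35.1 CPM with ALX-5407. These gave a log2 fold change of 0.43 (SE 0.0965, edgeR adjusted p = 0.00145), without overlap. Dut, which degrades dUTP to dUMP and so feeds Tyms, had 77.4, 90.2 and 77.9 CPM in Th1 and 123, 117 and 108 CPM with ALX-5407. It also rose without overlap, by 0.50 on the log2 scale (SE 0.0807, edgeR adjusted p = 8.2e-05). Tk1, the cytosolic thymidine kinase of S phase, rose from 43.3 ± 3.78 to 70.6 ± 1.90 CPM, a log2 fold change of 0.71 (SE 0.0803, edgeR adjusted p = 2.55e-06). Dck, the kinase of deoxycytidine, deoxyadenosine and deoxyguanosine, had 51.7, 52.1 and 51.9 CPM in Th1 and 84.0, 84.8 and 80.0 CPM with ALX-5407. Its controls were almost equal, and the log2 fold change was 0.68 (SE 0.0704, edgeR adjusted p = 1.02e-06). Dtymk, which phosphorylates dTMP, had 35.6, 38 and 43.9 CPM in Th1 and 50.3, 48.8 and 42.1 CPM with ALX-5407. This was the single called gene of the list whose groups overlapped, ALX-5407 replicate 3 lying below Th1 replicate 3. Its log2 fold change of 0.26 (SE 0.0949, edgeR adjusted p = 0.0299) became 0.19 to 0.24 without Th1 replicate 1 or 2 or ALX-5407 replicate 1 or 2, with edgeR adjusted p from 0.0981 to 0.159. With upper quartile scaling it was 0.21 (edgeR adjusted p = 0.0847).

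Samhd1 encodes the hydrolase that breaks deoxynucleoside triphosphates down to deoxynucleosides, and so lowers the pools of DNA precursors. It lies at chr2:157097533-157135265 (− strand). Samhd1 had 1208, 1205 and 1283 CPM in Th1 and 771, 774 and 792 CPM with ALX-5407. The treated libraries formed a narrow group far below the controls, at 0.632 of their level or a log2 fold change of -0.66 (SE 0.0679, edgeR adjusted p = 8.87e-07). The other 8 genes of the branch summed to 475 to 535 CPM in Th1 and to 837 to 872 CPM with ALX-5407. Ratios of these genes, chosen after the values were seen and given without a test, were taken per kilobase of exon. Exon length is that of all annotated exons merged, 11012 bases for Rrm1 and 2771 for Rrm2, so ratios between genes depend on it. Samhd1 stood 6.25 ± 0.528 times as high as Rrm2 in Th1 and 1.37 ± 0.0908 times with ALX-5407. Against Rrm1 the ratio of Samhd1 went from 8.15 ± 0.520 to 3.02 ± 0.0871. Rrm1 stood at 0.770 ± 0.103 of the level of Rrm2 in Th1 and at 0.454 ± 0.0220 with ALX-5407, so the small subunit rose more than the large one. In CPM not divided by length Rrm1 was the higher in both groups. It had 183 ± 18.4 CPM against 59.9 ± 3.88 CPM for Rrm2 in Th1. With ALX-5407 the values were 310 ± 13.5 and 172 ± 12.1 CPM.

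Per kilobase of exon, levels in Th1 spanned from 135 CPM per kb for Samhd1 to 2.05 CPM per kb for Dhodh. The order between genes depends on exon lengths merged over all annotated transcripts, which can exceed the length of the transcript made. Nme2, listed at 0.188 CPM per kb, is left out of this order because its near-identical copies held most of the counted reads and its own level is uncertain. The order at the top was Samhd1 (135 ± 4.81), Hprt (133 ± 5.63), Paics (98.3 ± 11.2), Aprt (70.0 ± 5.44) and Impdh2 (61.7 ± 3.65 CPM per kb), of which Samhd1 and Hprt did not differ beyond their spread. Prps1 followed at 39.9 ± 2.89, Adss at 35.5 ± 1.19, Dut at 33.9 ± 3.01 and Impdh1 at 32.3 ± 1.64 CPM per kb, and neither Adss and Dut nor Dut and Impdh1 differed beyond their spread. At the lower end stood Tyms (4.0 ± 0.420), Rrm2b (2.48 ± 0.246) and Dhodh (2.05 ± 0.0892 CPM per kb). With ALX-5407 the order at the top became Hprt (152 ± 1.28), Paics (93.8 ± 2.60), Samhd1 (85.1 ± 1.28), Impdh2 (63.9 ± 0.929) and Rrm2 (62.2 ± 4.38 CPM per kb). Impdh2 and Rrm2 did not differ beyond their spread there, whereas Rrm2 had stood at 21.6 ± 1.40 CPM per kb, the 11th place, in Th1. Cad, of the pyrimidine ring, moved from the 21st to the 12th place, and Gart, of the purine ring, from the 24th to the 16th.

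**Figure D3:**
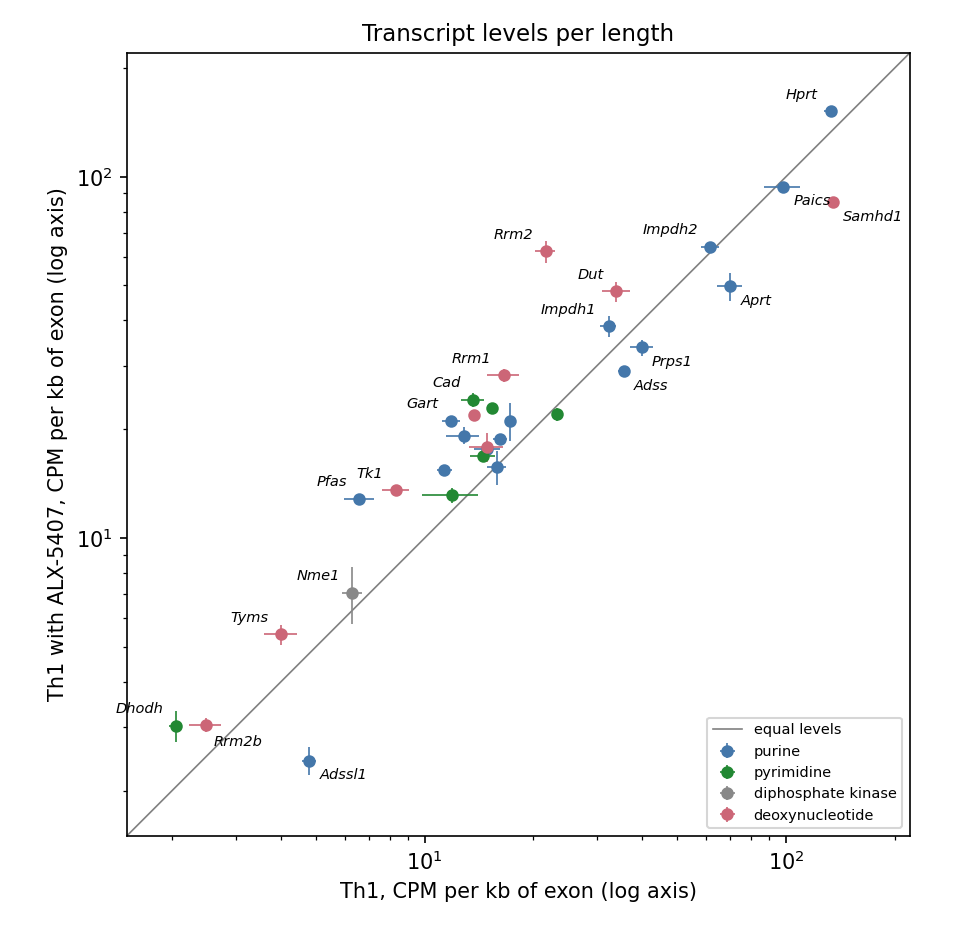
Mean level per kilobase of exon in Th1 (x axis) and with ALX-5407 (y axis), in CPM per kb on log axes, for 32 genes (Nme2, at 0.188 and 0.256 CPM per kb, is outside the axes). Bars are SD over 3 libraries, colours give the branch and the grey line marks equal levels. Rrm2 lies farthest above the line, at 21.6 and 62.2 CPM per kb, and Samhd1, Aprt and Adssl1 lie below it.

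Several steps are served by 2 genes, and for 6 such pairs the share that each gene held was computed per kilobase of exon. An exact permutation test over the libraries, two-sided and with 3 against 3, cannot go below p = 0.1, so no pair could pass the threshold. The pairs other than Nme1 and Nme2 had p = 0.1 in this exact test (0.12 after Benjamini-Hochberg adjustment over 6 pairs). Prps1 held 69.8 ± 0.895% of its pair with Prps2 in Th1 and 61.6 ± 1.58% with ALX-5407. Impdh1 held 34.4 ± 0.433% and 37.6 ± 1.70% of its pair with Impdh2, the isoform of dividing lymphocytes. The share of Impdh2 was thus lower with ALX-5407 than in Th1, though it held the greater part in both groups. Counts on the pseudogene Impdh2-ps were not included, so the share of Impdh2 may be understated. Adss, against Adssl1, held 88.1 ± 0.762% and 92.3 ± 0.399%. Ctps held 56.6 ± 3.77% in Th1 and 63.5 ± 1.67% with ALX-5407 against Ctps2, and Rrm2 held 89.7 ± 1.26% and 95.3 ± 0.261% against Rrm2b. The shares depend on the length used. In counts not divided by length Rrm2 held 72.6% in Th1 and 86.1% with ALX-5407, a larger shift. Adss held 94.1% and 96.3% by such counts, a smaller shift. The shifts of the remaining pairs changed by less than the SD of their shares. Nme1, at 97.1 ± 1.33% and 96.5 ± 1.24% of its pair with Nme2, did not shift beyond the spread (exact permutation p = 0.6). That share is uncertain, since most counted reads of the Nme2 sequence lay on its copies and reads shared with Gm20390 may not have been counted.

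**Figure D4:**
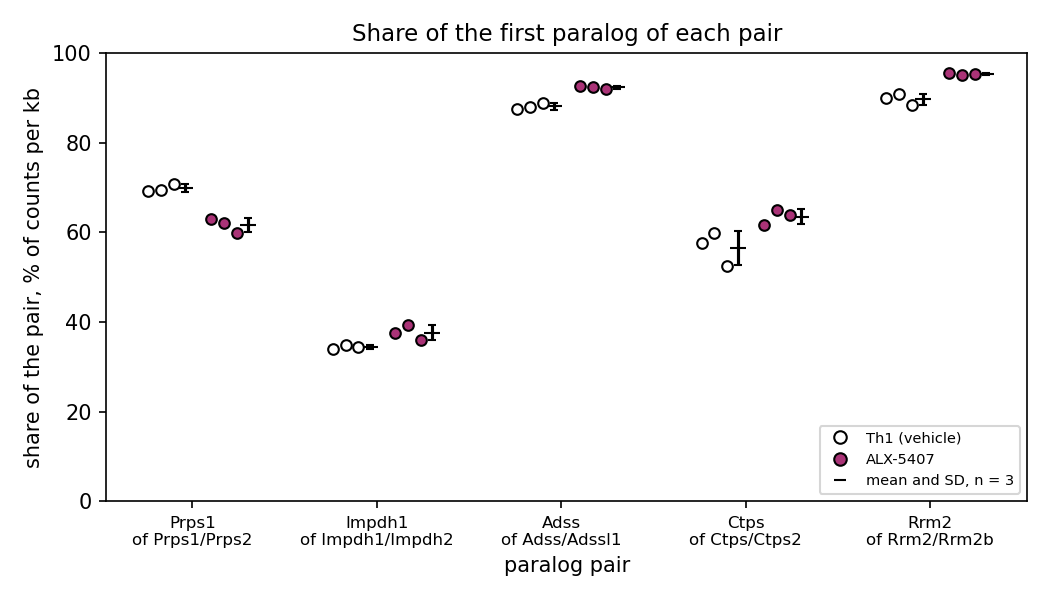
Share of the first gene in each of 5 paralog pairs (x axis), in percent of the counts per kilobase of the pair (y axis), in each library. Open points are Th1, filled points ALX-5407, and bars give the mean and SD of 3 libraries. The share of Prps1 is lower with ALX-5407 and the shares of Impdh1, Adss, Ctps and Rrm2 are higher, each without overlap.

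The folate cycle supplies the formyl groups of Gart and Atic and the methyl group of Tyms. Of 11 tested genes of this cycle, which include Aldh1l2, a user of formyl groups, 6 rose (54.5%, against 24.5% of all genes tested). In edgeR's test 0 fell, against 23.2% (1 at an unadjusted p under 0.05, and 0 by DESeq2 or limma-voom after adjustment). The median log2 fold change was 0.25. Mthfs, which returns stored formyl folate to the cycle, was called lower without Th1 replicate 1 or without ALX-5407 replicate 3, at -0.65 in both. Shmt2, the mitochondrial serine hydroxymethyltransferase that makes glycine, rose from 155 ± 8.34 to 277 ± 9.23 CPM (log2 fold change 0.84, edgeR adjusted p = 1.2e-07). Shmt1, its cytosolic counterpart, rose from 24.9 ± 1.92 to 41.6 ± 0.762 CPM (0.74, edgeR adjusted p = 3.14e-06). Aldh1l2, which oxidizes formyl-tetrahydrofolate in mitochondria, rose from 16.2 ± 3.96 to 68.8 ± 5.0 CPM (2.08, edgeR adjusted p = 4.48e-09).

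Of 19 tested genes of purine breakdown and interconversion 6 rose (31.6%) and 5 fell (26.3%), shares close to the 24.5% and 23.2% of all genes tested, with a median of 0.037. Xdh, the xanthine dehydrogenase that makes uric acid in purine breakdown, fell from 76.0 ± 1.66 to 39.8 ± 2.90 CPM (log2 fold change -0.93, edgeR adjusted p = 1.01e-07). Ampd2, the AMP deaminase that returns AMP to IMP, rose from 45.4 ± 2.05 to 61.6 ± 1.62 CPM (0.44, edgeR adjusted p = 0.000142). Adk, the adenosine kinase, rose as well, and the nucleotidases Nt5c and Nt5c2 fell. Gda, guanine deaminase, had at most 3 counts in a Th1 library and at least 11 with ALX-5407, too few for a fold.

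Among 10 tested genes of pyrimidine salvage and breakdown, 4 rose and 2 fell (40% and 20%, against the same 24.5% and 23.2%), with a median of -0.14. Uck2, a uridine and cytidine kinase, rose from 217 ± 21.2 to 300 ± 1.79 CPM (log2 fold change 0.47, edgeR adjusted p = 0.000106). Its relative Uckl1 fell from 45.9 ± 4.58 to 30.6 ± 1.65 CPM (-0.58, edgeR adjusted p = 5.77e-05). Cmpk2, the mitochondrial UMP and CMP kinase, was low but rose from 0.328 ± 0.0263 to 1.94 ± 0.351 CPM (2.55, edgeR adjusted p = 1.72e-05), and Upb1, of pyrimidine breakdown, fell. Of 5 tested nucleoside transporters 3 rose (60%) and 2 fell (40%), against the same shares of all genes. Without Th1 replicate 3 or ALX-5407 replicate 1 the count of transporters that rose was 1, and without Th1 replicate 2 the count that fell was 1. The pyrimidine salvage genes that rose numbered 2 without Th1 replicate 1 or 2 or ALX-5407 replicate 1 or 2.

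Among 9 transcription factors known to act on these genes, 5 rose (55.6%) and 1 fell (11.1%), against 24.5% and 23.2% of all genes tested. Myc, which binds the E-box of many nucleotide synthesis genes, rose from 174 ± 5.31 to 259 ± 24.4 CPM (log2 fold change 0.57, edgeR adjusted p = 1.62e-05). E2f3 and E2f8, of the E2F family of S phase regulators, had log2 fold changes of 0.68 and 0.91. Atf4, which induces folate and amino acid genes when amino acids are scarce, fell from 415 ± 34.2 to 258 ± 7.90 CPM (-0.69, edgeR adjusted p = 1.81e-06).

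Genes of DNA replication and mitosis moved in the same direction as the deoxynucleotide branch. Of 21 S phase genes 19 rose (90.5%, median log2 fold change 0.82). Of 14 mitotic genes 13 rose (92.9%, median 0.56), against 24.5% of all genes tested. In both lists 0 fell in edgeR's test, at an unadjusted p under 0.05, or by DESeq2 or limma-voom after adjustment. Mcm2, of the replicative helicase, rose from 87.6 ± 0.388 to 186 ± 4.33 CPM (1.09, edgeR adjusted p = 4.38e-09), and Aurka, a mitotic kinase, rose from 37.1 ± 3.06 to 71.7 ± 0.851 CPM (0.95, edgeR adjusted p = 1.09e-07). In the 3 ALX-5407 libraries the S phase median lay 0.76 to 0.83 above the Th1 mean on the log2 scale, compared with 0.52 to 0.59 for the deoxynucleotide genes and 0.47 to 0.56 for the purine ring genes. How much of the rise of the nucleotide genes goes with the share of dividing cells was not tested.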

How the data were processed

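Total RNA of 6 cultures (3 Th1 with vehicle, 3 with 500 nM ALX-5407) was sequenced. The authors deposited raw counts, whole numbers of reads per gene, not normalized and not pooled; the submitters' processing notes name fastp, HISAT2 2.0.5, featureCounts 1.5.0-p3 and mm10. Options for strand and for reads with several matches, and the annotation release, are not given in the sources used here.

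Counts were analysed with edgeR 4.0.16 in R 4.3.3: filterByExpr (minimum count 10, minimum total 15), TMM, and the quasi-likelihood F test, adjusted by Benjamini-Hochberg over 15938 genes. The study used DESeq2 with a log2 fold change over 1, so both were run as alternatives (DESeq2 1.42.0; limma-voom, limma 3.58.1), beside other scalings and filters, a replicate block, pseudogene sums (BLAST 2.17.0, 95% identity over at least 200 bases) and each library left out. The pipeline was tested on simulated counts. Standard errors are the fold change over the root of its F statistic. Exon lengths follow the deposited table and GENCODE M21, with the exons of all annotated transcripts of a gene merged. Plots were made in Python 3.11.15 with matplotlib 3.10.9.

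Columns named ctrl were taken as Th1, the one group without ALX-5407. At 30801753 to 36727788 counts per library, counting error is small for all listed genes but Nme2; counts of replicates scattered beyond sampling noise (chi-square per degree of freedom 5.67 to 22.9), so each library counted as 1 replicate. The 33 genes and all lists were chosen with earlier results of these data known. Named outside the 33 are up to 3 higher and 3 lower genes of each list with the smallest p, marker genes, and genes that share reads with the 33.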

Additional observations from a re-analysis of the deposited data

How the results depend on the processing

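No called gene of the list changed sign under any of 15 alternatives. Of 26 called genes 17 kept their call throughout, and 9 (8 higher, 1 lower, each with an absolute log2 fold change of at most 0.29) lost it in 1 or more, with edgeR adjusted p from 0.0502 to 0.188. Leaving out 1 library left 16 to 22 genes higher and 4 to 5 lower. With a log2 fold change over 1 required as well, 536 of all genes were higher and 1064 lower, with 1 higher and 0 lower in the list, 0 higher and 0 lower purine, 0 higher pyrimidine, and 1 higher and 0 lower deoxynucleotide genes. Upper quartile scaling, which shifted the median of all genes to -0.048, gave 16 genes higher and a purine median of 0.15. The share of Nme1 in its pair with Nme2 changed by -1.30 to 0.069 percentage points when 1 library was left out, with the opposite sign without Th1 replicate 2; the cause was not tested, and it rests on under 20 counts of Nme2 per library. Th1 and ALX-5407 libraries of the same number did not deviate together (correlations -0.0084, 0.0036 and 0.063), so the numbers were not taken as pairs; a replicate block gave 21 genes higher and 5 lower in the list, and 4071 and 3833 over all genes. Summing near-identical copies, added after the data were seen, made Nme2 testable and the number lower 6.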
